A study of Oryza sativa Indica Group with 8 samples.

Results

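Among the probe sets of a rice genome array, 159 separated roots of the cultivars Nootripathu and IR20 by at least 2 log2 units, a 4-fold difference, both with watering and under drought, always in the same direction. Signal was higher in Nootripathu for 80 of them, which belong to 77 genes, and lower in Nootripathu for 79, which belong to 78 genes. They were chosen from 15449 probe sets that belong to exactly 1 gene in the array annotation, do not end in _x_at or _s_at (endings that mark probes shared between transcripts) and average at least 5 log2 units over the 8 arrays. The array holds 57258 probe sets other than controls. The choice therefore used the cultivar differences in control and in stressed roots, and these differences are given below as a description with no test. Their signs run as Nootripathu minus IR20.

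The groups were Nootripathu stress, Nootripathu control, IR20 stress and IR20 control, with 2 arrays each. Per the labels, Nootripathu is a deep-rooted, low-yielding landrace and IR20 is a semi-dwarf, shallow-rooted, drought-susceptible cultivar with high yield, both of the indica group. Single plants grew in pipes 1 m long in a greenhouse; the stressed ones received no water from 40 days after sowing until leaves rolled and dried, and the labels give neither the number of days nor the plants per sample. Control roots were washed and stressed roots only tapped free of soil, so handling and drought cannot be told apart. The replicates are called biological with no more detail, and the statistics measure the spread between these samples. In whole roots, fewer cells of a type and less RNA per cell cannot be told apart either.

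A difference between cultivars that persists across growth conditions is known in plant genetics as a constitutive one, and is often set against differences in response. Ethylene signalling ends in transcription factors of the EIN3/EIL family, which accumulate in the nucleus when the hormone is perceived and switch on ethylene-responsive genes; in rice roots the pathway is known for restraining elongation and for shaping aeration tissue. Calcium-dependent protein kinases (CPKs) join a calcium-binding domain to a kinase and pass on the calcium signals of stressed cells. Both families have a member here, EIL1 (LOC4332697) and CPK21 (LOC4346187).

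Arrays had signals between 2.53 and 15.28 with medians between 5.29 and 5.35. On the stressed IR20 replicate 2 array, spike-in transcripts had 5.32 log2 units more signal at their 3′ than at their 5′ ends, against 2.08 to 2.58 on the other arrays. For the plant's actin transcript it was 7.08 there, against 5.29 to 5.79. For its GAPDH transcript it was 1.26 and 1.20 on both stressed IR20 arrays, against 0.49 to 0.76 on the rest. Without stressed IR20 replicate 2, 76 of the 80 and 76 of the 79 probe sets still met the rule, and 8 others joined those higher in Nootripathu. Leaving out that array does not remove a 3′ difference shared by both stressed IR20 arrays. Of 13 root marker genes found by name, 10 were measured, and none was under the array median on all arrays. Their summed signal was lower under drought in both cultivars. It was 15.22 and 15.22 in control and 13.86 and 13.89 in stressed Nootripathu roots, against 15.58 and 15.55 in control and 13.82 and 13.88 in stressed IR20 roots. The median of these markers was higher in IR20 in control roots (10.51 and 10.67, against 9.24 and 9.27). In stressed roots it was lower in IR20 (5.68 and 5.63, against 6.56 and 6.59). The 5 measured markers of photosynthetic tissue summed to 8.26 to 8.64 in Nootripathu and 8.74 to 9.41 in IR20; 3 of the 5 were above the array median on all arrays. The part of such tissue in the differences was not tested.

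The EIN3-family factor EIL1 was high in Nootripathu and low in IR20. Its signal was 12.83 and 12.92 in control and 11.61 and 12.04 in stressed Nootripathu roots, against 6.16 and 6.18 in control and 5.45 and 6.34 in stressed IR20 roots. The lowest Nootripathu array lay more than 5 log2 units above the highest IR20 array. The difference was 6.70 ± 0.27 (SE, n = 2 arrays per group) in control and 5.93 ± 0.27 in stressed roots, or 104-fold and 61.0-fold. Here and below the SE is that of the limma fit, from a spread shared by the 4 groups, not that of the compared arrays alone. Drought changed it much less: averaged over both cultivars it fell by 0.66 ± 0.19 (limma, adjusted p = 0.0229), with values of −1.05 in Nootripathu and −0.28 in IR20. That call was lost without either control array of Nootripathu, either of IR20, or Nootripathu stress replicate 1 (adjusted p = 0.0537 to 0.0812). The array has no other probe set assigned to EIL1 alone.

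CPK21, a kinase linked in rice to abscisic acid and salt responses, had the same pattern at lower signal. It measured 9.29 and 9.27 in control and 9.80 and 9.72 in stressed Nootripathu roots, against 4.41 and 4.61 in control and 4.15 and 4.45 in stressed IR20 roots. All IR20 arrays lay below their array's median and all Nootripathu arrays far above it. The difference was 4.77 ± 0.13 in control and 5.46 ± 0.13 in stressed roots, and the mean drought effect of 0.14 ± 0.09 did not pass (limma, adjusted p = 0.285); with spike-in scaling it was −0.61 (adjusted p = 0.00893). CPK21 too is represented by 1 probe set only.

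The other measured genes of these families did not share the size of the difference. By name, 26 ethylene genes (synthesis, receptors, signalling, and ERF-named factors, many of which are known as DREB genes) were found and 20 measured, and 24 CPK genes were found and 20 measured. Of the 19 ethylene genes other than EIL1, 4 were higher and 2 lower in Nootripathu in control roots and 5 and 3 in stressed roots (limma, adjusted p under 0.05). Over all probe sets 8.37% were higher and 10.9% lower in control roots, and 10.7% and 11.3% in stressed roots. The largest difference among these genes was 0.98 in control and 1.23 in stressed roots, both in ACS1, which encodes a synthase of the ethylene precursor. Their medians were 0.05 and −0.09, beside −0.10 and −0.01 over the probe sets that could have been chosen.

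ACS1 had 7.37 and 7.55 in control and 7.08 and 7.27 in stressed Nootripathu roots, against 6.48 and 6.49 in control and 6.03 and 5.86 in stressed IR20 roots, with no overlap (limma, adjusted p = 0.00076 and 0.000253). The receptor gene ETR2 was higher in Nootripathu in both states, by 0.35 and 0.80 (limma, adjusted p = 0.0499 and 0.00119), and the receptor gene ETR3 was lower in both, by −0.65 and −0.46 (limma, adjusted p = 0.0048 and 0.0222). Both were less firm than ACS1: the control call of ETR2 was lost without any 1 of the 4 control arrays (adjusted p = 0.0696 to 0.227), and the stress call of ETR3 without either Nootripathu stress array or IR20 stress replicate 2 (adjusted p = 0.0651 to 0.115). The control call of ETR3 was lost without Nootripathu control replicate 2 (adjusted p = 0.0514). With spike-in scaling ACS1 passed in both states, and ETR2 and ETR3 in neither. The spike-in 3′ signal was 11.09 and 10.67 on the stressed Nootripathu arrays and 11.09 and 10.51 on the stressed IR20 arrays. Scaling carries these differences between replicates into every probe set, so a call lost under it says little about a single gene. EIN2, the membrane protein that carries the signal from receptors to the EIL factors, was lower in Nootripathu in control roots (−0.52, limma, adjusted p = 0.00765) and differed by −0.22 in stressed roots (adjusted p = 0.162); its control call was lost without Nootripathu control replicate 2 or IR20 control replicate 2 (adjusted p = 0.0688 and 0.0623). RefSeq also names EIL1 (LOC4332697) EIL1B, and its paralog EIL1A (LOC107276358) lies directly beside it in the RefSeq gene order. EIL1A had 13.98 and 14.06 in control and 13.82 and 13.82 in stressed Nootripathu roots, against 13.89 and 13.89 in control and 13.97 and 14.03 in stressed IR20 roots. Its differences of 0.13 and −0.17 did not pass (limma, adjusted p = 0.419 and 0.227).

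Of the 19 CPK genes other than CPK21, 7 were higher in Nootripathu in control roots and 7 in stressed roots, and 0 were lower in either (limma, adjusted p under 0.05). At an unadjusted p under 0.05, 0 were lower in control and 1 in stressed roots. Over all probe sets 8.37% were higher and 10.9% lower in control roots, and 10.7% and 11.3% in stressed roots. A share over probe sets of like signal is not given, so the counts of both lists are read no further. The median differences of the 19 CPK genes were 0.17 and 0.25 and the largest 1.48 and 0.90, each gene by its probe set of highest mean. With all probe sets of a gene averaged, the largest were 1.48 in control roots (CPK4) and 1.66 in stressed roots (CPK13). CPK13 then differed by 0.84 in control roots, so its probe sets differ in size. CPK1, CPK4, CPK5, CPK13 and CPK20 passed in both states. The kinase gene CPK4 differed by 1.48 in control and 0.79 in stressed roots (limma, adjusted p = 4.49e-05 and 0.0013). The other 4 differed by 0.48 to 0.54 in control and 0.47 to 0.77 in stressed roots; each lost its control call without either Nootripathu control array or without IR20 control replicate 2 (adjusted p = 0.0523 to 0.131), and CPK1 and CPK13 without IR20 control replicate 1 too (0.0888 and 0.0814). In stressed roots CPK1 lost its call without Nootripathu replicate 2 (adjusted p = 0.0557), and CPK20 without either Nootripathu array (adjusted p = 0.0624 and 0.094). With arrays scaled to the spike-in transcripts, the 5 genes stayed higher in Nootripathu and only the control difference of CPK4 passed. The difference of the drought effects passed in 5 of the ethylene and 2 of the CPK genes, beside 19.6% of all probe sets. In rice CPK4 is known from work on salt and drought tolerance.

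**Figure D1:**
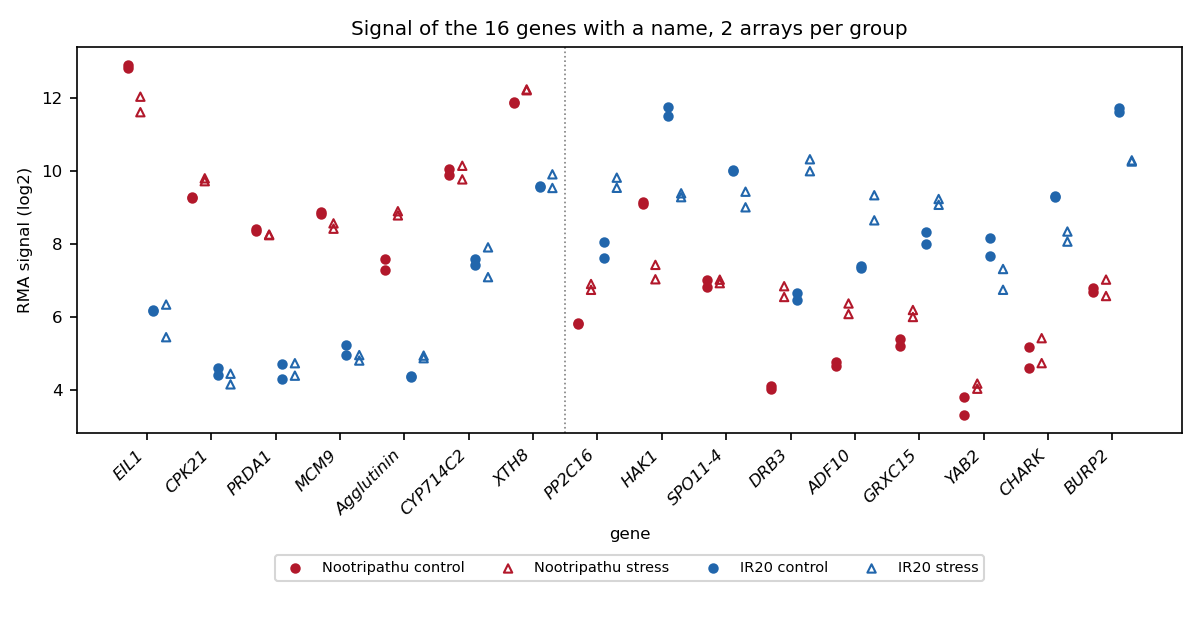
RMA signal (log2) of the 16 chosen genes that carry a name in RefSeq, 1 point per array, Nootripathu in red and IR20 in blue, circles for control and triangles for stress; genes right of the dotted line are lower in Nootripathu. The EIL1 points lie near 12 to 13 in Nootripathu and near 5 to 6 in IR20, and DRB3 and HAK1 shift with drought in both cultivars.

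Only 16 of the 155 genes carry a name in RefSeq beyond a locus number. Beside EIL1 and CPK21, 5 of the named genes were higher in Nootripathu. PRDA1, known in Arabidopsis for plastid gene transcription, had 8.36 and 8.40 in control and 8.24 and 8.26 in stressed Nootripathu roots, against 4.72 and 4.30 in control and 4.73 and 4.39 in stressed IR20 roots. The minichromosome maintenance protein gene MCM9 had 8.88 and 8.83 in control and 8.42 and 8.57 in stressed Nootripathu roots, against 4.95 and 5.22 in control and 4.81 and 4.96 in stressed IR20 roots. Both genes differed by more than 3.5 log2 units in either state, and their arrays did not overlap.

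The gene listed as Agglutinin, a sugar-binding lectin, had 7.28 and 7.58 in control and 8.90 and 8.79 in stressed Nootripathu roots, against 4.35 and 4.37 in control and 4.94 and 4.87 in stressed IR20 roots. It rose with drought on average over both cultivars by 0.98 ± 0.09 (limma, adjusted p = 3.59e-05), with values of 1.41 in Nootripathu and 0.55 in IR20; with spike-in scaling the effect was 0.23 (adjusted p = 0.335). CYP714C2, a cytochrome P450 of a family known for oxidising gibberellins in rice, differed by 2.47 in control and 2.46 in stressed roots, and XTH8, a xyloglucan-remodelling enzyme of the cell wall, by 2.30 and 2.50. CYP714C2 and XTH8 had clear signal in IR20 too, with 7.09 to 7.91 for CYP714C2 and 9.54 to 9.91 for XTH8.

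The 9 named genes lower in Nootripathu include signalling, transport and developmental genes. CHARK, a receptor-like kinase with a domain known from cytokinin receptors, had 4.60 and 5.19 in control and 4.74 and 5.42 in stressed Nootripathu roots, against 9.30 and 9.31 in control and 8.34 and 8.07 in stressed IR20 roots. BURP2, of a plant-specific family named for its BURP domain, had 6.69 and 6.78 in control and 6.58 and 7.03 in stressed Nootripathu roots, against 11.63 and 11.74 in control and 10.29 and 10.26 in stressed IR20 roots. YAB2, a transcription factor of the YABBY family known from leaves and flowers, had 3.32 and 3.81 in control and 4.18 and 4.04 in stressed Nootripathu roots, against 7.66 and 8.16 in control and 6.75 and 7.32 in stressed IR20 roots. In each of these 3 genes the difference was at least 1 log2 unit smaller under drought, with lower signal in stressed than in control IR20 roots.

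HAK1, a high-affinity potassium transporter of root cells, had 9.11 and 9.16 in control and 7.03 and 7.43 in stressed Nootripathu roots, against 11.52 and 11.76 in control and 9.29 and 9.39 in stressed IR20 roots. It fell with drought by 2.10 ± 0.11 on average (limma, adjusted p = 1.5e-06), and the cultivar difference was −2.50 in control and −2.11 in stressed roots. Without Nootripathu stress replicate 1 it was −1.91 in stressed roots, outside the rule. PP2C16, a protein phosphatase of the 2C type, had 5.80 and 5.84 in control and 6.75 and 6.90 in stressed Nootripathu roots, against 7.61 and 8.05 in control and 9.54 and 9.82 in stressed IR20 roots. It rose by 1.43 ± 0.12 (limma, adjusted p = 2.1e-05). Its control difference of −2.01 was −1.99 without Nootripathu control replicate 1 and −1.79 without IR20 control replicate 2, also outside the rule. In both genes the difference between the cultivars stood beside a drought value of the same sign in each.

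DRB3, whose family binds double-stranded RNA, had 4.10 and 4.03 in control and 6.55 and 6.84 in stressed Nootripathu roots, against 6.45 and 6.66 in control and 9.997 and 10.32 in stressed IR20 roots. Stressed Nootripathu roots thus overlapped with watered IR20 roots. The actin-depolymerising factor gene ADF10 differed by −2.66 in control and −2.77 in stressed roots, and the glutaredoxin gene GRXC15, of a family that handles thiol groups, by −2.86 and −3.06. SPO11-4, of the family that cuts DNA in meiosis, differed by −3.11 and −2.24. ADF10 rose with drought by 1.58 ± 0.15 (limma, adjusted p = 5.09e-05), GRXC15 by 0.90 ± 0.10 (adjusted p = 0.000164), and SPO11-4 fell by 0.37 ± 0.11 (adjusted p = 0.024). The rise of GRXC15 was 0.15 with spike-in scaling (adjusted p = 0.539). The call of SPO11-4 was lost without Nootripathu control replicate 1, Nootripathu stress replicate 1 or either IR20 control array (adjusted p = 0.0604 to 0.0901).

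**Figure D2:**
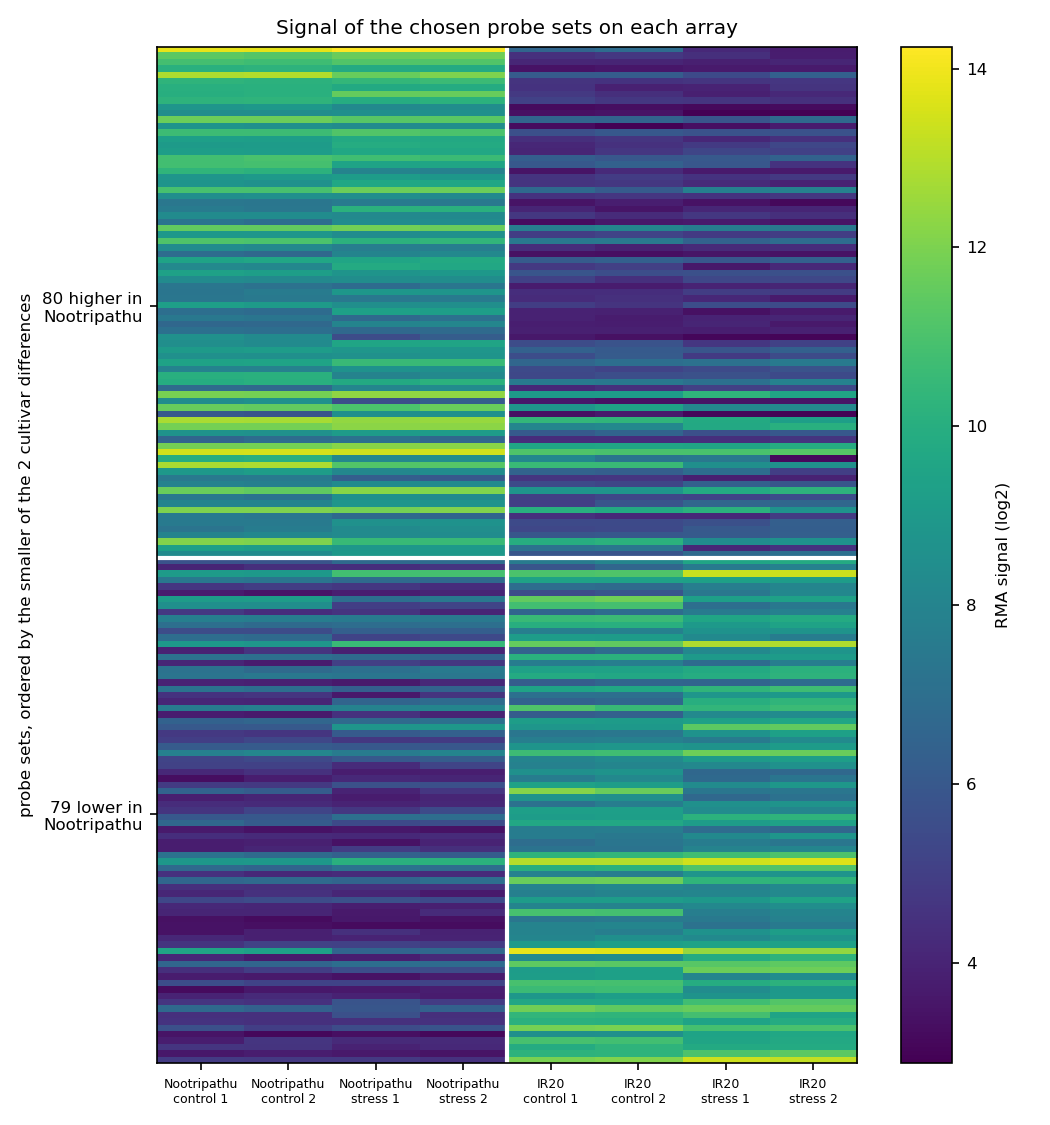
RMA signal (log2, colour scale) of the 80 probe sets higher and the 79 lower in Nootripathu (lines of the map, ordered by the smaller of the 2 cultivar differences) on each of the 8 arrays. The colours change at the white line between the Nootripathu and the IR20 arrays, and less between control and stress.

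The cultivar differences had a median of 3.50 in control (2.01 to 7.05) and 3.56 in stressed roots (2.00 to 10.21) for the probe sets higher in Nootripathu. For those lower in Nootripathu the medians were −3.44 (−7.26 to −2.01) and −3.67 (−8.68 to −2.11). The 4 Nootripathu arrays lay above the 4 IR20 arrays in all 80 probe sets of the first direction, and below them in 76 of the 79 of the second; among the probe sets that could have been chosen these shares were 5.85% and 6.65%. The 3 exceptions were LOC4325712, DRB3 and LOC4340029, all with large drought effects. The separation of the arrays by cultivar follows in large part from the rule and is read no further. Both states passed the 2-unit mark in the same direction in 0.518% and 0.511% of the probe sets that could have been chosen.

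Many differences of watered roots did not meet the rule under drought, and the reverse. Of 149 probe sets at least 2 higher in Nootripathu in control roots, 53.7% were so in stressed roots as well, and these are 30.1% of the 266 in stressed roots. Of 360 at least 2 lower in control roots, 21.9% were so in stressed roots, and these are 45.9% of the 172 there. A further 13 were at least 2 higher in one state and at least 2 lower in the other. Within the chosen sets the difference was at least 1 wider under drought in 12 and narrower in 6 of the 80, and wider in 19 and narrower in 12 of the 79.

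In part of the chosen sets the signal of one cultivar was low. IR20 was under the array median on all 4 arrays in 39 of the 80 probe sets (48.8%), and Nootripathu in 39 of the 79 (49.4%). Over all probe sets these shares were 44.7% and 45.7%, and over those that could have been chosen, which the minimum on the mean limits, 1.29% and 2.13%. The shares in the chosen sets follow in part from the rule and are read no further. In 15 of the 80 and 7 of the 79 the low cultivar was under the lower quartile of its 4 arrays (3.95 to 4.08). Over all probe sets IR20 was so in 19.7% and Nootripathu in 20%. Over those that could have been chosen it was 0.0971% and 0.0453%. These counts too follow in part from the rule. Background may limit so low a signal, and those differences may then be bounds, which was not tested.

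The largest difference among probe sets higher in Nootripathu belonged to LOC4328727 on chromosome 2. It had 13.84 and 13.79 in control and 14.24 and 14.09 in stressed Nootripathu roots, against 6.61 and 6.91 in control and 4.18 and 3.73 in stressed IR20 roots. It differed by 7.05 in control and 10.21 in stressed roots, the largest values of the 80 in either state. Its second chosen probe set differed by 6.70 and 7.18. LOC9266843 on chromosome 4 had 11.40 and 11.20 in control and 11.65 and 11.77 in stressed Nootripathu roots, against 4.45 and 4.72 in control and 4.40 and 3.78 in stressed IR20 roots. LOC4350996, LOC4350023 and LOC4350876, all on chromosome 11, differed by 5.53 to 6.65 in the 2 states. LOC107278748 differed by 5.47 in control and 7.55 in stressed roots, LOC4326084 by 5.35 and 5.50, and LOC4335583 by 5.62 and 5.16.

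In the other direction the largest smaller difference of the 2 states belonged to LOC4349197 on chromosome 10. It had 4.85 and 4.75 in control and 4.75 and 4.50 in stressed Nootripathu roots, against 11.94 and 12.07 in control and 13.39 and 13.22 in stressed IR20 roots. Nootripathu stayed below the array median throughout, and the difference was −7.21 in control and −8.68 in stressed roots. LOC4344551 on chromosome 8 had 3.61 and 3.81 in control and 3.65 and 3.49 in stressed Nootripathu roots, against 10.22 and 10.27 in control and 11.07 and 11.39 in stressed IR20 roots. LOC4350802 differed by −6.64 and −5.40, LOC4334900 by −6.57 and −5.25, LOC4351993 by −5.87 and −5.14, LOC4351673 by −5.55 and −5.19, LOC4326298 by −5.46 and −5.70, LOC4344943 by −5.25 and −6.34, LOC4342229 by −5.05 and −5.42, and LOC4346816 by −5.03 and −5.61. The loci from LOC4350802 to LOC4346816 are listed by the size of their difference in control roots, largest first. The largest difference in control roots alone was −7.26, in LOC4336804 on chromosome 4, which differed by −4.91 in stressed roots. The annotation used here gives no function for these loci. A smaller difference of at least 5 in both states occurred in 11 probe sets of the first and 10 of the second direction.

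At the edge of the rule, LOC4340742 (2.47 in control, 2.00 in stress), LOC4343574 (2.01, 4.62) and LOC4330793 (2.05, 2.03) were just inside, and LOC4334604 (1.99, 2.73), LOC4327925 (3.40, 1.98) and LOC4334251 (3.51, 1.94) just outside. Among those lower in Nootripathu, PP2C16 (−2.01, −2.86), LOC4338074 (−2.02, −3.24) and LOC4325584 (−2.03, −2.46) were just inside, and LOC4345964 (−2.53, −1.98), LOC4343813 (−1.98, −2.51) and LOC4352857 (−2.58, −1.95) just outside. On mean signal, LOC4347857 (5.23) and LOC4329977 (5.25) were the lowest inside, and LOC4340626 (4.94) and LOC4347968 (4.68) the highest outside.

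The mean drought effect over both cultivars, which the rule did not use, was tested on all probe sets. Of the 80 probe sets higher in Nootripathu, 24 rose and 18 fell with drought, and of the 79 lower in Nootripathu, 31 rose and 21 fell (limma, adjusted p under 0.05). These are 52.5% and 65.8%, beside 40.5% of all probe sets (22.1% rose and 18.4% fell) and 71.5% of those that could have been chosen. The directions depend on the scaling, since with arrays scaled to the spike-in transcripts 1 rose and 55 fell in the first set and 8 rose and 47 fell in the second. That scaling moved the median effect over all probe sets to −0.70, against 0.05 with the deposited values. The median effect was −0.01 in the first set and 0.13 in the second, and the median size 0.48 over both sets, beside 0.53 over the probe sets that could have been chosen.

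**Figure D3:**
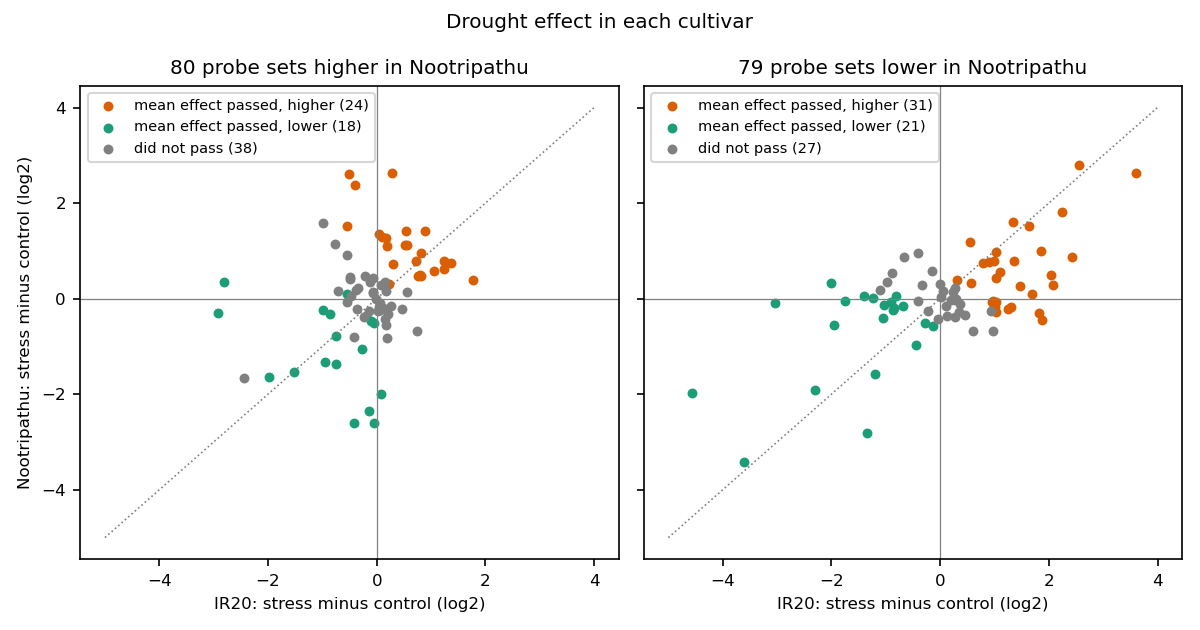
Stress minus control (log2) in IR20 (horizontal) against Nootripathu (vertical), 1 point per probe set, for the 80 probe sets higher in Nootripathu (left) and the 79 lower (right), coloured by the test of the mean effect. Of the points, 24 and 31 rose and 18 and 21 fell with the deposited scaling; the dotted line marks equal effects.

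The largest drought effects lay in the set lower in Nootripathu. LOC4325712 had 8.52 and 8.50 in control and 5.00 and 5.19 in stressed Nootripathu roots, against 10.80 and 10.89 in control and 7.02 and 7.45 in stressed IR20 roots, and fell by 3.51 ± 0.11 (limma, adjusted p = 1.14e-07). Its cultivar difference in stressed roots, −2.14, was −1.93 without IR20 stress replicate 2. LOC4325989 had 6.47 and 6.16 in control and 4.00 and 4.67 in stressed Nootripathu roots, against 12.17 and 11.65 in control and 7.34 and 7.35 in stressed IR20 roots, and fell by 3.28 ± 0.17 (limma, adjusted p = 1.79e-06). DRB3 rose by 3.12 ± 0.11 (limma, adjusted p = 2.15e-07) and LOC4340029 by 2.67 ± 0.07 (adjusted p = 7.3e-08). In LOC4340029 both cultivars shifted by about the same amount, 2.80 in Nootripathu and 2.55 in IR20.

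Among genes higher in Nootripathu, LOC4340413 fell by 1.82 ± 0.07 (limma, adjusted p = 3.38e-07), with 12.82 and 12.86 in control and 11.15 and 11.23 in stressed Nootripathu roots, against 10.57 and 10.57 in control and 8.52 and 8.64 in stressed IR20 roots. LOC4330793 fell by 1.53 ± 0.09 (adjusted p = 3.29e-06). In other genes the values of the cultivars lay apart, which was not tested in the chosen genes. The stress minus control value of LOC4343574 was −0.30 in Nootripathu and −2.91 in IR20, and that of LOC4347857 was −2.60 and −0.42. LOC4347857 had the lowest mean signal of the chosen probe sets (5.23), and its IR20 signal was low in both states. Background may limit a further fall there, which was not tested. The largest mean effect, −2.05 ± 0.78 in LOC4326043, did not pass (limma, adjusted p = 0.0708). That gene had 7.42 and 3.15 on the 2 stressed IR20 arrays, and without replicate 2 its stressed cultivar difference was 0.92 and its mean drought effect −0.98 (adjusted p = 0.00857).

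Other probe sets offer a second reading of the same genes on the same arrays. Only 47 of the 155 genes have one that was not itself chosen, 57 probe sets in all. Second probe sets that met the rule too, in 4 genes, are left out. The shares and medians of agreement below are therefore lowered by the choice. Of the 57, 12 differed by at least 2 in the chosen direction in both states and another 13 by at least 1, together 43.9%. A further 16 had the same sign at a smaller size, 6 changed sign between states and 10 had the opposite sign in both. The median in the chosen direction was 1.04 in control and 0.94 in stressed roots. Of the 27 that do not end in _x_at or _s_at, 25.9% reached 1 in both states. A difference in transcript level and a difference in sequence under the probes cannot be told apart from one probe set, and the probe sequences were not used here.

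**Figure D4:**
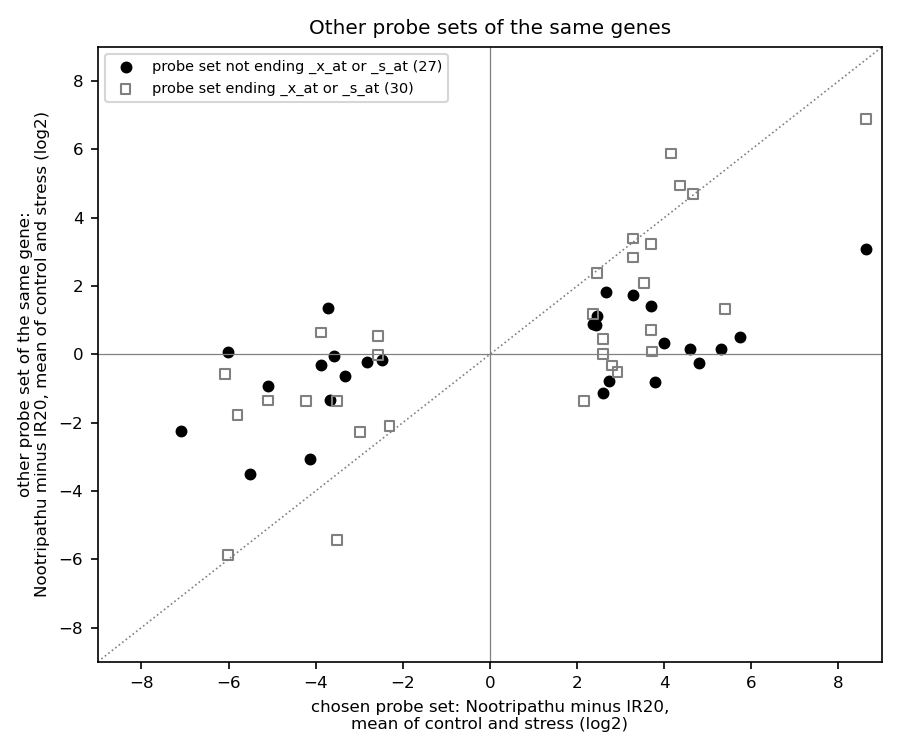
Nootripathu minus IR20 (log2, mean of control and stress) of the chosen probe set (horizontal) against another probe set of the same gene (vertical), with filled points for probe sets not ending in _x_at or _s_at and open squares for the rest. The dotted line marks equal differences; many points lie nearer to 0 vertically, and 10 of the 57 had the opposite sign in both states.

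In HAK1, DRB3, CYP714C2 and MCM9 another reading lay within 1 log2 unit of the chosen one in both states. Each of these readings came from a probe set ending in _x_at or _s_at, the kind left out of the choice. Another probe set of HAK1 gave −2.29 in control and −1.89 in stressed roots, one of DRB3 −1.87 and −2.70, and one of CYP714C2 2.18 and 2.59. Readings of the same sign could be much smaller. BURP2, chosen at −4.95 and −3.48, gave −1.79 and −0.97 in a probe set ending in _x_at. MCM9, chosen at 3.77 and 3.61, gave 3.51 and 2.97 in one ending in _x_at. In one without that ending it gave 0.65 and 2.18. LOC4328727 gave 6.54 and 7.25 in one ending in _x_at and 2.42 and 3.76 in one without that ending. For some genes the reading was near 0 or opposite: PRDA1 gave −1.27 and −0.36, LOC4350023 0.22 and 0.77, and LOC4334655, chosen at −3.76 and −3.66, gave 1.27 and 1.46. The other genes with an opposite reading were LOC4327820, LOC4329977, LOC4331143, LOC4335863, LOC4338201, LOC4340504, LOC4350407 and LOC9268179.

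The chosen genes were unevenly placed on the chromosomes. On chromosome 11, 23 of 611 measured genes (3.76%) were among them, 12 higher and 11 lower in Nootripathu. On chromosome 12 they were 17 of 711 (2.39%), and on chromosome 4, 20 of 1234 (1.62%), 16 of these higher and 4 lower. The other chromosomes had 0.295% to 1.31%, and all chromosomes together 1.09%.

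**Figure D5:**
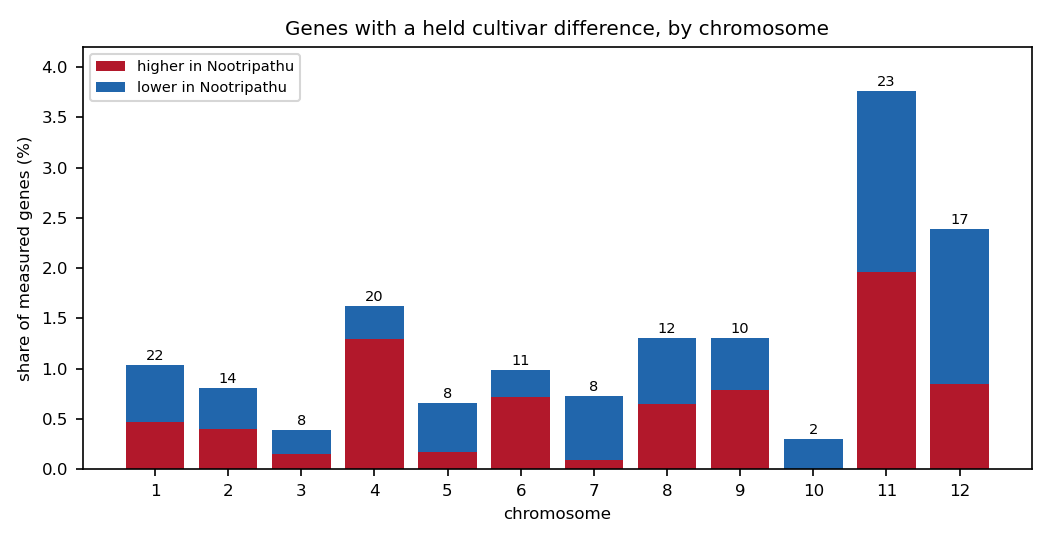
Share of measured genes on each chromosome (%) that are among the 155 chosen genes, stacked by direction, with the number of chosen genes above each bar. Chromosome 11 has the highest share, 3.76%, and chromosome 10 the lowest, 0.295%.

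Some of them are neighbours. The order used was that of protein-coding genes on RefSeq's japonica assembly, which may differ from that of these indica cultivars. In it, 28 consecutive pairs of chosen genes lay within 10 genes of each other, 19 in the same direction and 9 in opposite directions. Pairs were not counted for an equal number of other measured genes, so the pair counts are read no further. In 8 pairs the genes were directly adjacent, and 7 of these had the same direction, among them MCM9 and LOC4340504, and LOC4350994 and LOC4350996. Directly beside CPK21, LOC4346188 and LOC4346186 were not chosen and differed in the same direction, by 2.27 and 0.96 in control and by 1.70 and 0.25 in stressed roots. CPK21 lies 6 genes from LOC4346182, which was lower in Nootripathu, and HAK1 6 genes from LOC4335724, which was higher. Of 114 measured genes directly beside a chosen one and not chosen themselves, 10 (8.77%) differed by at least 1 in the same direction in both states, 7 of them in the direction of their neighbour. Over all 14099 measured genes that were not chosen it was 298 (2.11%).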

How the data were processed

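Root RNA, 2 ug per sample, was hybridised to 8 Affymetrix rice arrays. The deposited values are log2 signals that the authors made by RMA in Affymetrix Expression Console 3.0, per the submitters' processing notes; scan files were not used here. RMA sets the arrays to a common distribution, which hides any shift shared by most transcripts. Probe sets were named from the platform annotation (22436 with 1 gene, 95 with several, 34727 with none) and by gene ID from RefSeq. Every one of the 155 genes matched.

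Arrays were grouped by title. A mean per group was fitted to the 57258 probe sets other than the 123 controls with limma 3.58.1 in R 4.3.3 (4 residual degrees of freedom, prior 3.88), with Benjamini-Hochberg adjustment of p-values over all of them. Simulated data served to check the fit. With 2 arrays on each side the smallest two-sided exact permutation p is 0.333, so that test was not used. The number of arrays limits the precision.

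The genes, lists and rules were chosen with earlier results of these data known. Named in the text are chosen genes with a symbol, the 10 largest by the smaller of the 2 cultivar differences and the 5 largest drought effects per direction, the 3 nearest the threshold on each side, genes with an opposite second reading, and listed genes. A listed gene is represented by its probe set of highest mean. LOC4336804, the listed genes described singly, and the neighbouring pairs, were picked after their values were seen. Counts of gene families by product text were not made, since the annotation used here holds no such text. Alternatives were the replicate block, median centring, spike-in scaling (12 probe sets for 3′ ends), a trended prior, omission of the 40% lowest probe sets, a minimum change of 1, gene means, other member filters, and leaving out each array.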

Additional observations from a re-analysis of the deposited data

Results flagged for a closer look

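For 7 listed genes outside the chosen set, 5 of the ethylene list and 2 kinases, the cultivar difference itself changed between control and stressed roots by the test of the difference of drought effects, Nootripathu minus IR20. The ethylene receptor gene ERS2 had 9.27 and 9.41 in control and 8.77 and 8.81 in stressed Nootripathu roots, against 9.50 and 9.55 in control and 10.10 and 9.92 in stressed IR20 roots. Its difference of drought effects was −1.03 ± 0.15 (limma, adjusted p = 0.00287). CPK23 had 9.39 and 9.27 in control and 9.05 and 9.12 in stressed Nootripathu roots, against 8.68 and 8.67 in control and 9.34 and 9.50 in stressed IR20 roots. Its cultivar difference was −0.33 in stressed roots (limma, adjusted p = 0.0583), against 0.65 in control roots (adjusted p = 0.00333), and its difference of drought effects was −0.99 ± 0.15 (limma, adjusted p = 0.00311).

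CPK4 had 12.43 and 12.44 in control and 12.67 and 12.66 in stressed Nootripathu roots, against 10.96 and 10.96 in control and 11.98 and 11.77 in stressed IR20 roots, a difference of drought effects of −0.69 ± 0.15 (limma, adjusted p = 0.0153). The others were ERF40 at −1.13 (adjusted p = 0.00499), ERF24 at 0.85 (adjusted p = 0.00606), the ethylene precursor synthase gene ACS2 at −0.68 (adjusted p = 0.0304) and ERF30 at 0.68 (adjusted p = 0.0323). With spike-in scaling all 7 kept their sign and only ERF40 passed (−1.41, adjusted p = 0.0308); the others were −1.32 in ERS2 (adjusted p = 0.0537), −1.27 in CPK23 (0.0685), −0.97 in CPK4 (0.238), −0.97 in ACS2 (0.24), 0.56 in ERF24 (0.531) and 0.39 in ERF30 (0.647). CPK4 also lost its call without either Nootripathu control array, either Nootripathu stress array or IR20 control replicate 2 (adjusted p = 0.0528 to 0.0631). ERF30 lost it without any 1 Nootripathu array or IR20 control array, and ACS2 without any 1 Nootripathu array or IR20 control replicate 1 (adjusted p = 0.0684 to 0.105). Median centring ended the call of ACS2 too (adjusted p = 0.0582).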

How the results depend on the processing

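With spike-in scaling 2211 probe sets rose and 44934 fell with drought, against 12662 and 10510 with the deposited values; 1 and 55 of the 80 probe sets higher in Nootripathu and 8 and 47 of the 79 lower ones did so. Control roots then had 2651 higher and 2059 lower in Nootripathu, against 4792 and 6256, and stressed roots 2547 and 1839, against 6105 and 6496. The mean drought effect changed sign in 13 results of named genes, to −0.64 in the second probe set of LOC4328727, −0.56 in LOC4350023, −0.26 in LOC107278748, −0.61 in CPK21, −0.24 in LOC4335863, −0.50 in XTH8, −0.10 in LOC4327820, −0.62 in LOC4329977, −0.64 in LOC4334655, −0.53 in LOC4351993, −0.27 in LOC4344943, −0.33 in LOC4344551 and −0.19 in LOC4349197. The cause was not tested. Requiring a change of at least 1 left 3129 rises and 4042 falls with drought over all probe sets, 6 and 9 of the 80, and 11 and 7 of the 79. The chosen sets held 85 and 81 probe sets without the minimum on the mean, 98 and 88 with shared probe sets kept, 80 and 80 after median centring, and 83 and 75 with spike-in scaling. With gene means, 1 CPK gene was lower in stressed roots in place of 0, and 25.9% in place of 43.9% of other probe sets reached 1 where those ending in _x_at or _s_at were left out.

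With 1 array left out, a lone array is assumed to vary like the other groups. The chosen sets then held 76 to 84 and 74 to 83 probe sets. Calls over all probe sets ran from 2596 to 6590 higher and 3797 to 7904 lower in control roots, 3873 to 6723 and 3117 to 7642 in stressed roots, and 10605 to 13746 and 9229 to 11271 for drought. Drought calls ran from 23 to 27 higher and 12 to 22 lower of the 80 and 27 to 33 and 18 to 23 of the 79, and the share of other probe sets reaching 1 from 42.1% to 45.6%. Replicate numbers are only numbers here: deviations of same-numbered arrays correlated at −0.01 to 0.21. With the replicate block, drought calls were 12811 and 10591 over all probe sets, 25 and 19 of the 80, and 30 and 21 of the 79; cultivar calls were 4802 and 6278 in control and 6213 and 6461 in stressed roots.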
